A study of Mus musculus with 4 samples.

Results

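The Ikaros zinc finger family consists of 5 genes in the mouse, Ikzf1 (Ikaros), Ikzf2 (Helios), Ikzf3 (Aiolos), Ikzf4 (Eos) and Ikzf5 (Pegasus). They were taken by name from the 54752 genes of the count tables, and all 5 could be tested. RNA had been sequenced from 2 WT and 2 Mek1/2-tKO cultures of splenic naïve CD4+ T cells, which were kept with antibodies to CD3 and CD28, IL-6, and blocking antibodies to TGF-β, IL-4, IL-2 and IFN-γ to skew them towards Tfh cells, and sorted for viable cells on day 3. Mek1/2-tKO mice carry floxed Map2k1 and Map2k2 alleles that are deleted by Cre driven from Cd4, so that MEK1 and MEK2, the kinases that activate ERK1/2, are lost from T cells. Whether the WT mice carried floxed alleles or the Cre transgene, the age and sex of the mice, and whether the 2 libraries of a genotype came from separate animals are not given in the sources used here, so the p-values measure only the spread between these libraries. The question of the comparison was how the loss of both kinases changes gene expression during Tfh polarization.

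Members of this family are transcription factors of lymphocytes. A block of zinc fingers near the front of the protein binds DNA, and a pair of fingers at the end joins family members to each other. Ikaros and Aiolos recruit repressor complexes such as NuRD (nucleosome remodelling and deacetylase), and Ikaros is needed for the development of B and T cells. Helios and Eos are best known from regulatory T cells, and Aiolos has been linked to the Tfh program. Pegasus is the most distant relative.

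The second DNA-binding finger is shown for each gene because it encodes identical residues in 4 of the 5 members, and because it is the part of Ikaros and Aiolos that cereblon, a ubiquitin ligase receptor, recognises in the presence of thalidomide-type drugs in human cells. Each sequence runs 5′ to 3′ on the coding strand from the first cysteine codon to the last histidine codon of the finger, was read from the GENCODE M21 transcripts (GRCm38), and has the codons of the zinc-binding cysteines and histidines in capitals. For Ikzf5 the finger with the most residues in common with that of Ikzf1 is given, which is the first finger found in its coding sequence.
Ikzf1, chr11:11754024-11754086, exon 6: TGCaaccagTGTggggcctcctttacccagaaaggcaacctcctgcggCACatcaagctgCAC
Ikzf2, chr1:69570581-69570643, minus strand, exon 5: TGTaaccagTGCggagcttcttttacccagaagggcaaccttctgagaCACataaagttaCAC
Ikzf3, chr11:98488940-98489002, minus strand, exon 5: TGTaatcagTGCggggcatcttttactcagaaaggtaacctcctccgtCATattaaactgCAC
Ikzf4, chr10:128640229-128640291, minus strand, exon 5: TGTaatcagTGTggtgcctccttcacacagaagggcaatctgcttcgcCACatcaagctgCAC
Ikzf5, chr7:131393759-131393821, minus strand, exon 3: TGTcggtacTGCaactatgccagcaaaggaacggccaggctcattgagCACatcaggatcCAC

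The finger encodes the same 21 residues in Ikzf1, Ikzf2, Ikzf3 and Ikzf4, although only 51 of the 63 bases of Ikzf2 and of Ikzf3 and 53 of those of Ikzf4 match Ikzf1. Ikzf5 shares 6 of the 21 residues and 29 of the 63 bases. The shared residues include the zinc-binding cysteines and histidines, which any finger of this length found by the search has at these positions. The transcripts as a whole were less alike. The longest identical run between the transcripts of any pair was 32 bases, between Ikzf2 and Ikzf4, and it was 26 bases between Ikzf1 and Ikzf3, against reads of 150 bases.

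The libraries held 16330802 to 18931090 counts, and 14330 genes passed the filter on low counts. A gene is said to have risen, fallen or been called where its adjusted p in edgeR's quasi-likelihood test was under 0.05 and it differed by 1.5-fold or more. By this rule 2768 genes (19.3% of those tested) rose and 2355 (16.4%) fell in Mek1/2-tKO cells. Of the targeted genes, Map2k1 fell from 182 and 187 CPM (counts scaled to library size) to 98.0 and 105 CPM, while Map2k2 had 155 and 165 CPM in WT against 172 and 182 CPM in Mek1/2-tKO and was not called. A count over a whole gene does not resolve the loss of single exons. The cells are labelled as CD4+ T cells, and Cd4 itself fell from 297 and 289 CPM to 18.8 and 25.1 CPM. Of 6 genes of CD4 T-cell identity, 4 fell (Cd4, Cd28, Cd3e and Trac) and 2 (Cd3d and Cd3g) were not called.

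In RPKM (CPM per kilobase of exon, which allows levels of different genes to be compared), Ikzf1 was the main member in both genotypes, Ikzf3 came next, and the remaining members were low. Ikzf3 rose 2.57-fold in Mek1/2-tKO cells, Ikzf4 fell 1.6-fold, and Ikzf1 was 1.47-fold lower, which passed the adjusted p but stopped short of the fold change threshold. Ikzf2 and Ikzf5 were not called. With 2 of 5 members called, against 35.8% of all tested genes, the family was called about as often as other genes. An adjusted p under 0.05 at any fold change was reached by 3 of the 5, against 55% of tested genes. The libraries of the genotypes did not overlap for 4 of the 5 members, where this was true of 78.3% of all tested genes. As these are bulk samples, fewer cells of a type and less RNA per cell cannot be told apart.

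**Figure D1:**
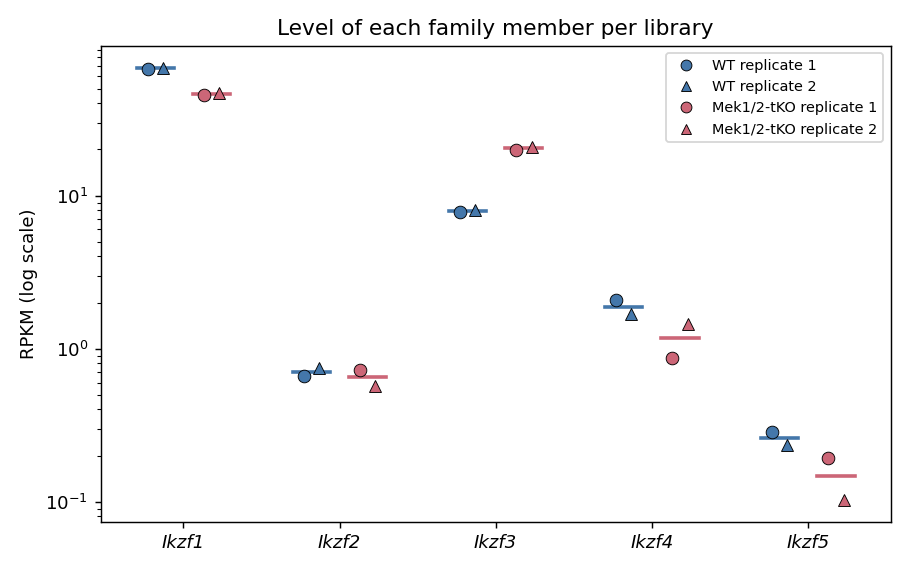
Level of each family member in RPKM on a log axis, with 1 point per library, circles for replicate 1, triangles for replicate 2 and a bar at the mean of the genotype. Ikzf1 lies highest and drops from 66.7 and 68.6 RPKM in WT to 45.1 and 47.0 RPKM in Mek1/2-tKO, while Ikzf3 climbs from 7.77 and 8.05 to 19.85 and 20.9 RPKM.

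Ikzf1 (ENSMUSG00000018654.17, chr11:11685003-11772926, plus strand) encodes Ikaros, the founding member. It had 7509 and 7641 counts in WT and 4032 and 5102 counts in Mek1/2-tKO libraries, or 385 and 396 CPM against 260 and 272 CPM. Both Mek1/2-tKO libraries lay below both WT libraries, and the replicates of a genotype were close together. Per length, the level was 67.7 ± 1.34 RPKM in WT and 46.1 ± 1.38 RPKM in Mek1/2-tKO cells (SD, n = 2 each), which placed Ikzf1 above 92.5% and 87.7% of the tested genes. The log2 fold change was -0.55 (SE 0.07, 95% interval -0.71 to -0.40, quasi-likelihood adjusted p = 2.35e-05, edgeR). The interval holds the fold change threshold of 1.5, and the gene passed it when library size alone was used for scaling (-0.64) and without Mek1/2-tKO replicate 2 (-0.59), but in none of the other 9 alternatives.

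Aiolos is encoded by Ikzf3 (ENSMUSG00000018168.8, chr11:98464902-98546031, minus strand), on the same chromosome as Ikzf1. Its counts were 1325 and 1359 in WT and 2690 and 3429 in Mek1/2-tKO libraries, which is 68.0 and 70.5 CPM against 174 and 183 CPM. The genotypes were far apart compared with the distance between replicates. The level rose from 7.91 ± 0.20 to 20.4 ± 0.72 RPKM (SD, n = 2 each), from above 58.5% to above 76.8% of the tested genes. Its log2 fold change of 1.36 had a 95% interval of 1.18 to 1.55 (quasi-likelihood adjusted p = 1.86e-08, edgeR), and it lay between 1.28 and 1.40 over all 11 alternatives, in each of which the gene was called. None of the exon bases of Ikzf1 or Ikzf3 is shared with another gene.

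Ikzf4 (ENSMUSG00000002578.17, chr10:128630843-128645991, minus strand), the gene of Eos, a partner of Foxp3 in regulatory T cells, was counted 243 and 194 times in WT and 81 and 164 times in Mek1/2-tKO libraries. In CPM this was 12.5 and 10.1 against 5.23 and 8.73. Mek1/2-tKO replicate 1 was well below the other library of its genotype, and replicate 2 was only a little below the lower WT library. The level fell from 1.88 ± 0.28 to 1.16 ± 0.41 RPKM (SD, n = 2 each). The log2 fold change was -0.68 (SE 0.25, 95% interval -1.21 to -0.15, quasi-likelihood adjusted p = 0.0314, edgeR). The call depended on single libraries and on the tool, since Ikzf4 was not called by DESeq2 (adjusted p = 0.0892), without WT replicate 1 (log2 fold change -0.52) or without Mek1/2-tKO replicate 1 (-0.37). Without Mek1/2-tKO replicate 2 the log2 fold change was -1.11.

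Helios, from Ikzf2 (ENSMUSG00000025997.13, chr1:69531214-69687245, minus strand), marks many regulatory T cells and some other T cells. Its counts of 149 and 168 in WT and 131 and 124 in Mek1/2-tKO libraries correspond to 7.65 and 8.71 CPM and to 8.46 and 6.60 CPM. Here the genotypes overlapped. The levels were 0.70 ± 0.06 RPKM in WT and 0.65 ± 0.11 RPKM in Mek1/2-tKO cells (SD, n = 2 each), and the log2 fold change of -0.12 had a 95% interval of -0.60 to 0.36 (quasi-likelihood adjusted p = 0.664, edgeR). This interval reaches past 1.5-fold on the lower side and stays short of it on the upper side, so that a moderate difference was not detectable rather than absent.

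**Figure D2:**
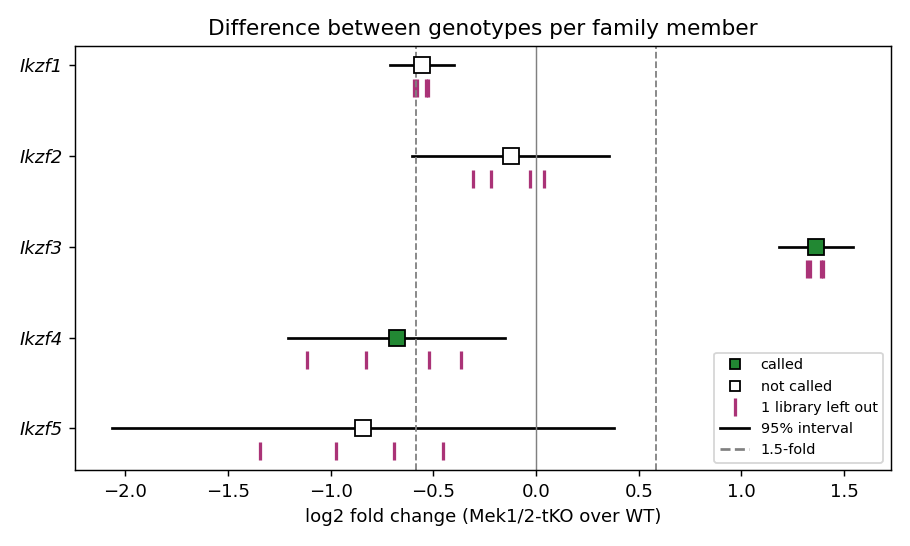
Log2 fold change of Mek1/2-tKO over WT for each family member (square, filled where called) with its 95% interval (line), the values with each library left out in turn (ticks) and the 1.5-fold threshold (dashed). Ikzf3 is clear of the threshold at 1.36, Ikzf1 sits beside it at -0.55, and the ticks of Ikzf4 spread from -1.11 to -0.37.

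Ikzf5 (ENSMUSG00000040167.16, chr7:131388652-131410521, minus strand) had only 32 and 26 counts in WT and 17 and 11 counts in Mek1/2-tKO libraries. This was 1.64 and 1.35 CPM against 1.10 and 0.59 CPM, where a count of 0 would allow up to 0.16 to 0.18 CPM. Both Mek1/2-tKO libraries were below both WT libraries, but the log2 fold change of -0.84 had a SE of 0.57 and a 95% interval of -2.06 to 0.38 (quasi-likelihood adjusted p = 0.227, edgeR), and it ranged from -1.34 to -0.45 with each library left out. The interval spans 0 and reaches far past 1.5-fold on the lower side, so that no difference was detectable at these counts.

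The level of Ikzf5 also depends on how its exon length is counted. Of its 5721 exon bases, 4835 (84.5%) also lie in exons of genes on the other strand, 4652 of them in Pstk and 183 in Gm44624, and the finger printed above is within the stretch shared with Pstk. Of the 491 genes whose exon bases are all shared with the other strand, 0 had a count in any of the 4 libraries, against 17353 of 46217 genes (37.5%) with less than 1% shared. The library kit is stranded, and the strand setting of the counting is not given in the sources used here. If reads on shared bases were left out of the counting, the counts of Ikzf5 rest on the remaining 886 bases, in 4 pieces of which the longest has 537 bases. Divided by these bases alone, the level of Ikzf5 was 1.85 and 1.52 RPKM in WT and 1.24 and 0.66 RPKM in Mek1/2-tKO libraries, in place of 0.29, 0.24, 0.19 and 0.10 RPKM over the whole exon length. On that scale it is a little below Ikzf4 in the WT libraries (2.08 and 1.68 RPKM for Ikzf4). It is above Ikzf4 in Mek1/2-tKO replicate 1 (0.87 RPKM) and below it in replicate 2 (1.46 RPKM). Ikzf2 is lower than Ikzf5 in each library on that scale (0.66, 0.75, 0.73 and 0.57 RPKM). The rank of Ikzf5 among the members is therefore uncertain. Pstk, on the other strand, shares the same 4652 bases, so its counts have the same limit. It had 16.3 and 13.3 CPM in WT against 19.2 and 18.5 CPM in Mek1/2-tKO and was not called. The overlap touches the other members little, with 1.24% of the exon bases of Ikzf2 and 0.617% of those of Ikzf4.

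**Figure D3:**
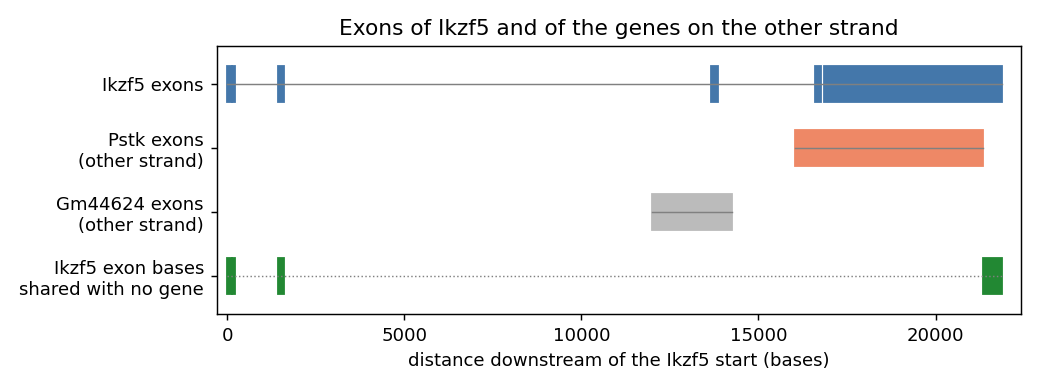
Exons of Ikzf5 and of the 2 genes on the other strand that overlap them, drawn by their distance in bases downstream of the Ikzf5 start, with the Ikzf5 exon bases that no other gene shares in the lowest row. The long last exon of Ikzf5 lies mostly over Pstk, and 886 of 5721 bases are left.

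Within a library, the make-up of the family can be read without any scaling between libraries. Ikzf1 made up 86.1 and 86.5% of the summed RPKM of the 5 genes in WT and 67.6 and 67.2% in Mek1/2-tKO cells. Ikzf3 made up 10.02 and 10.15% in WT and 29.7 and 29.8% in Mek1/2-tKO cells. The 2 genes together gave 96.1 to 97.3% of the family in every library. Per length there were 8.59 and 8.52 Ikaros reads for each Aiolos read in WT and 2.27 and 2.25 in Mek1/2-tKO cells. The log2 ratio of Ikzf3 to Ikzf1 was thus higher by 1.92 in Mek1/2-tKO libraries, with an SD between replicates of 0.0081 in WT and 0.0075 in Mek1/2-tKO (n = 2 each). An exact two-sided permutation test gave p = 0.333 for this ratio and for both shares, which is the smallest p that 2 libraries against 2 allow. The summed RPKM of the family was 77.5 and 79.3 in WT and 66.7 and 70.0 in Mek1/2-tKO libraries, so that the rise of Ikzf3 was smaller than the difference in Ikzf1 in absolute terms. With Ikzf5 taken over its 886 unshared bases, the mean share of Ikzf3 was 9.91% in WT and 29.4% in Mek1/2-tKO cells.

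**Figure D4:**
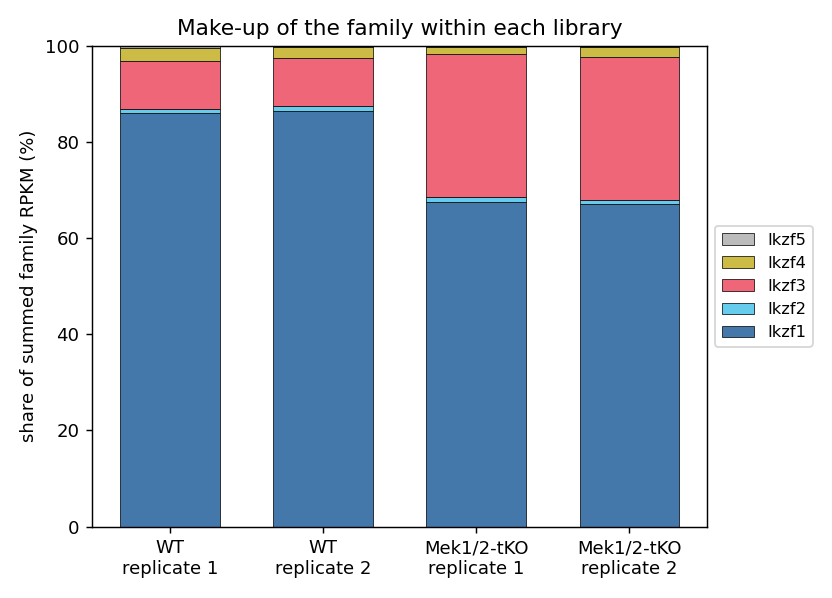
Share of each member in the summed RPKM of the family, as 1 stacked bar per library from 0 to 100%. Ikzf3 takes 10.02 and 10.15% in the WT libraries and 29.7 and 29.8% in the Mek1/2-tKO libraries, and Ikzf2, Ikzf4 and Ikzf5 form thin bands in all 4.

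Naïve CD4+ T cells had been enriched with a magnetic isolation kit before culture, a step meant to remove other cell types. Markers of such cell types moved in the same libraries as Ikzf3, where 19.3% of all tested genes rose and 16.4% fell. Of 20 B-lineage markers, 18 rose and 1 (Fcer2a) fell, and their summed level was 1835 to 1864 CPM in WT against 8601 to 8626 CPM in Mek1/2-tKO libraries. B cells express both Ikaros and Aiolos. Gamma-delta T-cell markers summed to 4.77 to 6.98 CPM in WT against 167 to 185 CPM in Mek1/2-tKO (5 of 5 tested genes rose, of 7 listed). NK-cell markers summed to 111 to 115 CPM and 725 to 796 CPM (11 of 12 rose and Itga2 fell). Most of the NK-cell sums came from Nkg7 (62.8 and 65.1 CPM against 436 and 405 CPM) and Prf1 (31.1 and 31.9 CPM against 197 and 178 CPM). Ncr1 had 0.77 and 0.83 CPM in WT against 11.5 and 9.85 CPM in Mek1/2-tKO. Of 15 myeloid markers, 13 were matched and 11 were tested, of which 10 rose and Cebpb fell. Their sums were 73.9 to 82.4 CPM in WT and 301 to 368 CPM in Mek1/2-tKO. Most of the Mek1/2-tKO sums came from Ly6c2 alone, which had 39.0 and 37.9 CPM in WT against 313 and 250 CPM in Mek1/2-tKO. The CD8 T-cell genes Cd8a and Cd8b1 rose too, Cd8a from 35.4 and 31.0 CPM to 147 and 130 CPM and Cd8b1 from 32.0 and 28.3 CPM to 90.8 and 83.9 CPM. No matched marker of the B-lineage, gamma-delta, NK and myeloid lists was at 0 in all 4 libraries, but Trdv4 of gamma-delta T cells and the myeloid markers Adgre1, S100a8 and Siglech were at 0 in both WT libraries. Markers with few or no WT counts, such as Adgre1, S100a8 and Sox13 (2 and 4 counts in WT), passed the low-count filter only through Mek1/2-tKO libraries. A rise was the only call open to such genes, so the tallies of risen markers depend partly on the filter. The part of such cells in the difference of Ikzf3, Ikzf1 or Ikzf4 was not tested.

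The repressor complexes through which Ikaros proteins act were read from a list of 17 NuRD and other corepressor genes, all of which were tested. Past both thresholds 5 fell and 2 rose, while 10 were not called, and the median log2 fold change was -0.17, beside 0.015 over all tested genes. With 7 of 17 called, the list was near the 35.8% called among all tested genes. The genes that fell were those of the chromatin remodellers Chd4 and Chd3, of the NuRD subunits Mta1 and Gatad2b, and of Sin3a, the scaffold of another histone deacetylase complex. Chd4, the ATPase that copurifies with Ikaros in T cells, fell from 479 and 497 CPM in WT to 199 and 246 CPM in Mek1/2-tKO libraries, a log2 fold change of -1.13 (SE 0.09, quasi-likelihood adjusted p = 3.08e-07, edgeR). Chd3 had a log2 fold change of -1.19 and Mta1 of -1.18. Sin3b rose from 99.97 and 112 CPM to 192 and 180 CPM. The other gene that rose, Ctbp2, had 6 and 15 counts in WT and 33 and 77 counts in Mek1/2-tKO. It passed the low-count filter only through the Mek1/2-tKO libraries. A rise was thus the only call open to Ctbp2, and the tally of 7 depends partly on the filter. Its paralog Ctbp1 was not called (log2 fold change -0.06). The deacetylase genes Hdac1 and Hdac2 had log2 fold changes of -0.17 and -0.27 and were not called. Of 5 genes of the cereblon ubiquitin ligase, 4 were analysed here, of which 1 fell and 3 were not called (35.8% of all tested genes were called). Cul4a, its scaffold, fell by 0.81 on the log2 scale, and Crbn, the receptor itself, had 26.6 and 25.1 CPM in WT against 26.7 and 29.8 CPM in Mek1/2-tKO and was not called (log2 fold change 0.13).

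Genes that Ikaros family proteins are known to bind or restrain in lymphocytes moved in both directions. Of 25 listed genes 23 were matched and 20 were tested, of which 9 rose, 7 fell and 4 were not called, with a median log2 fold change of 0.58, where 19.3% of all tested genes rose and 16.4% fell. Those that rose include the effector genes Ifng (from 127 and 121 CPM to 2054 and 1773 CPM), Prf1 (perforin, log2 fold change 2.57) and Gzma (granzyme A, 2.27). Prf1 is also on the list of NK-cell markers. Most markers of NK cells and the tested markers of gamma-delta T cells rose in the same libraries. The part of other cell types in the differences of the genes on this list was not tested. The cytokine gene Il2 fell from 113 and 111 CPM to 15.6 and 9.64 CPM, and Il2ra, the alpha chain of its receptor, fell by 0.91 on the log2 scale. Cd4, which Ikaros proteins bind, fell by 3.73, while Cd8a and Cd8b1 rose by 2.06 and 1.53, and Satb1, a chromatin organiser of T cells, fell by 2.00 on the log2 scale. Bcl6, the Tfh master regulator, rose from 7.44 and 5.55 CPM to 20.7 and 26.0 CPM. Hes1 rose too, from 9 and 10 counts in WT to 52 and 98 counts in Mek1/2-tKO. It passed the low-count filter only through the Mek1/2-tKO libraries, so a rise was the only call open to it. The list was chosen with earlier results of these data known, so its tally is only a description. Igll1 and Ptcra, genes of pre-B and pre-T cells, had a count of 0 in every library, and Vpreb1, another pre-B gene, had at most 6 counts.

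Genes of regulatory T cells were read beside Ikzf2 and Ikzf4. All 15 were tested, of which 6 fell, 3 rose and 6 were not called, where 16.4% of all tested genes fell and 19.3% rose, and the median log2 fold change was -0.57. Foxp3, the factor that defines these cells, had 4.16 and 4.36 CPM in WT against 1.29 and 3.35 CPM in Mek1/2-tKO, with a log2 fold change of -0.85 (SE 0.40, quasi-likelihood adjusted p = 0.0879, edgeR), which was not called, and genes of the other strand overlap 18.7% of its exon length. As with Ikzf4, Mek1/2-tKO replicate 1 was the lowest library. Ccr8, a chemokine receptor, fell from 73.1 and 66.1 CPM to 6.01 and 7.14 CPM. The log2 fold changes of the inhibitory receptor gene Ctla4 and of the costimulatory receptor gene Tnfrsf4 were -2.97 and -1.58. Gpr83, which also fell, had 76 and 88 counts in WT and 0 and 6 counts in Mek1/2-tKO. It passed the low-count filter only through the WT libraries, so a fall was the only call open to it. Entpd1, which encodes the ectoenzyme CD39, rose by 2.03 on the log2 scale, and Tnfrsf9, the gene of the costimulatory receptor 4-1BB, by 0.77. Activated conventional T cells express several of these genes too.

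**Figure D5:**
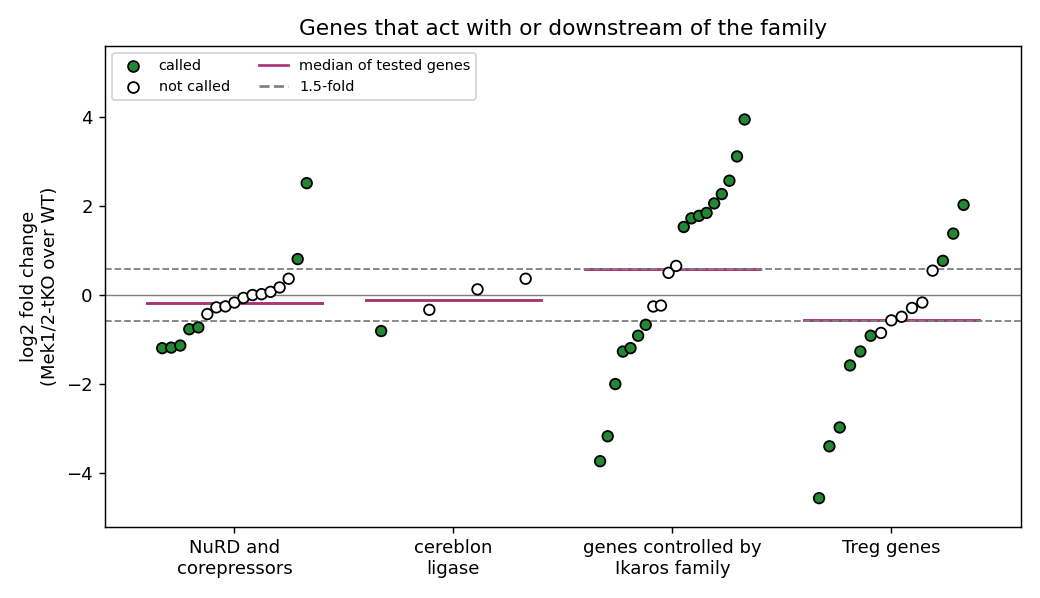
Log2 fold change of Mek1/2-tKO over WT for the tested genes of 4 lists, sorted within a list, with filled points for called genes, a line at the median of the list and dashed lines at 1.5-fold. The medians are -0.17 for NuRD and corepressors, -0.10 for the cereblon ligase, 0.58 for genes controlled by the family and -0.57 for Treg genes, and called genes lie on both sides in 3 of the 4 lists.

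The genes whose pattern over the 4 libraries was most like that of a member were found by the root mean square distance of centred log2 CPM, among the 7662 genes that reached 4 or more in log2 CPM on average. Nearest to Ikzf3 were Acox3 (distance 0.0082) and Serpina3f (0.0185), and 67 genes were within a distance of 0.1. For Ikzf1 the nearest were Vcp-rs (0.0063), whose symbol is that of a related sequence of Vcp, and Csnk2a2 (0.0064), but 1006 genes were within 0.1, so that its pattern was a common one. Zscan29 (0.0371) and Zfp1 (0.0381) were nearest to Ikzf2, and Usp33 (0.0921) and Parpbp (0.0957) to Ikzf4, although 24.4% and 12.1% of the exon bases of this pair are shared with the other strand. The 2 nearest to Ikzf5 were Ifitm2 (0.0983) and Gtf3c3 (0.119). These are descriptions over 4 libraries that fall into 2 genotypes.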

How the data were processed

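The authors trimmed the reads (Trimmomatic 0.36), aligned them to GRCm38 and assigned those that mapped uniquely to genes with featureCounts (Subread 1.5.1). What they deposited is a table of raw counts per gene for each of the 4 libraries, not normalized. The annotation release and the strand setting are not given in the sources used here. The exon lengths of all 5 family members equal those of GENCODE M21. Symbols were matched to 53861 of 54752 identifiers. Exon overlap was computed from the deposited coordinates.

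The 4 libraries were fitted together in R 4.3.3 with the robust quasi-likelihood model of edgeR 4.0.16 after filterByExpr and TMM scaling. Adjusted p-values are Benjamini-Hochberg values over 14330 genes, and DESeq2 was run as an alternative (version 1.42.0 here, 1.40.1 per the labels). The edgeR and DESeq2 steps were tested on simulated data. RPKM is TMM-scaled CPM divided by the exon length. Finger sequences were found with biopython 1.88. The thresholds are those of the methods of the study. Members and lists were chosen with earlier results of these data known. Examples from the 4 lists of corepressor, cereblon ligase, controlled and Treg genes are up to 3 called genes in each direction with the largest change that reach 3 in mean log2 CPM, any gene with no count above 10, and the 2 nearest patterns of each member are named. The genes that were named outside that rule were chosen after the data were seen. They are Bcl6, Cd8a, Cd8b1, Il2ra, Foxp3, Hes1, Gpr83, Sin3a, Gatad2b, Ctbp1, Ctbp2, Hdac1, Hdac2, Crbn, Pstk, the 2 targeted genes and single markers. The level over unshared bases and the check of genes shared with the other strand were also chosen after the data were seen. Genes of the lists that were not matched were not analysed here.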

Additional observations from a re-analysis of the deposited data

How the results depend on the processing

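The calls of Ikzf2, Ikzf3 and Ikzf5 stayed on their side of the thresholds in all 11 alternatives. Ikzf1 passed the fold change threshold with library size scaling (log2 fold change -0.64), and with each library left out it ranged from -0.59 (without Mek1/2-tKO replicate 2, where it passed) to -0.52. Ikzf4 was not called by DESeq2 (-0.69) and ranged from -1.11 to -0.37 with each library left out. Ikzf2 ranged from -0.31 to 0.0415, with the positive value without Mek1/2-tKO replicate 2. A lone library left in a genotype was assumed to vary like the other genotype. This need not hold, as the mean chi-square per gene between replicates was 4.19 in WT and 10.9 in Mek1/2-tKO. The cause of the changes with single libraries left out was not tested. Without division by length the share of Ikzf3 in the family was 24.4 percentage points higher in Mek1/2-tKO cells in place of 19.7, and 19.5 with Ikzf5 over its unshared bases, an alternative chosen after seeing the data.

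With no fold change threshold 3983 genes were higher and 3903 lower, in place of 2768 and 2355. Scaling by library size alone gave 2388 higher and 2848 lower, so that more genes fell than rose. In the fit that added a replicate block the counts were 2652 and 2300, and no call of a member changed. The deviations of libraries with the same number correlated at -0.0262 across genes. With 1 pair of libraries per genotype, this cannot show whether libraries of the same number were prepared together. The number of called genes stayed within 1.5 times under DESeq2 and library size scaling in the 8 lists for which this was run, which leave out the CD4 T-cell identity genes. Ikzf5 had at most 32 counts in a library, and depth and the overlap of its exons with other genes cannot be told apart as limits.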
